A study of Mus musculus with 12 samples.

Results

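The 10 genes described here encode proteins that neutrophils carry in their granules or cytoplasm, the receptor through which the neutrophil lineage is expanded, and a surface marker of inflammatory monocytes. They are S100a8, S100a9, Ngp, Camp, Ltf, Retnlg, Csf3r, Mpo, Elane and Ly6c2. They were chosen by gene symbol, as genes known for these cells, but with earlier results of these data known. Counts of calls among them therefore describe the set and are not an independent test of it. The expression table lists all 10 among its 47069 genes. All 10 also passed the filter on low values, which asked for 0.1 FPKM or more as the mean of the 12 libraries and left 17386 genes for the tests. The study sequenced polyadenylated RNA from the livers of mice at postnatal day 14, either from hepatocytes isolated from the organ or from whole liver. In each of these 2 compartments, 3 libraries came from Cdk1 Liv-/- mice and 3 from WT mice, which makes 12 libraries in 4 groups. Cdk1 Liv-/- mice carry a floxed Cdk1 gene and a Cre recombinase driven by the albumin promoter. Albumin is a hepatocyte product, so the deletion is directed to hepatocytes and not to neutrophils or monocytes. The study also reports that the deletion was partial in embryonic hepatoblasts and complete in hepatocytes by the age sampled here. Deletion in single cell types was not measured here. The study's methods describe 3 or more biological replicates for each experiment, but the labels do not tie libraries to animals, and the p-values measure the spread between these libraries. Levels are FPKM, fragments per kilobase of transcript at a fixed library total, a scale on which genes of different length can be compared.

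Neutrophils are short-lived phagocytes that form in the bone marrow and, in young mice, also in the liver, which is still giving up its role as a blood-forming organ in the weeks after birth. As they mature they fill a succession of granules, first azurophil granules with myeloperoxidase and elastase at the promyelocyte stage, then specific granules with lactoferrin and cathelicidin, and last a cytoplasm rich in the calcium-binding heterodimer of S100A8 and S100A9, called calprotectin. Inflammatory monocytes leave the marrow through the chemokine receptor CCR2, carry Ly6C at their surface and enter injured tissue, where they can become macrophages.

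Cdk1 (ENSMUSG00000019942, chr10:69335146-69352938, minus strand), the deleted gene, was at 27.9, 20.4 and 28.2 FPKM in WT hepatocytes and at 9.68, 11.8 and 6.87 FPKM in Cdk1 Liv-/- hepatocytes. In whole liver it was at 25.3, 22.7 and 21.5 FPKM in WT and at 11.7, 12.1 and 14.2 FPKM in Cdk1 Liv-/- libraries. In both compartments every Cdk1 Liv-/- library was under the lowest WT library, so each library carried the genotype of its label by this measure. A gene-level FPKM counts reads from all exons, and a transcript that lacks only the deleted part would still be counted. Hepatocyte genes were high in every library. Alb, which encodes serum albumin, was at 60008 to 64298 FPKM in WT and 39898 to 44890 FPKM in Cdk1 Liv-/- hepatocytes. In whole liver it was at 56843 to 61172 FPKM in WT and 43328 to 47348 FPKM in Cdk1 Liv-/- libraries. The genotypes did not overlap for Alb in either compartment.

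Libraries that stood apart from their group were found in 3 places. The summed FPKM of the 10 genes was 54.5 in WT hepatocytes library 3, against 15.8 and 13.3 in libraries 1 and 2. That library was also the highest of its group in the summed levels of the leukocyte, Kupffer cell, endothelial and erythroid marker lists given further on. In Cdk1 Liv-/- whole liver the sum was 97.4 in library 1, against 331.7 and 265.3 in libraries 2 and 3. The spread within that group was therefore larger than in WT whole liver, where the sums were 77.6, 49.5 and 74.4. Library 3 of Cdk1 Liv-/- whole liver had Xist, the RNA of the inactive X chromosome, at 158 FPKM, and 4 genes of the Y chromosome (Uty, Kdm5d, Ddx3y and Eif2s3y) were listed at 0 in it. Elsewhere Xist did not exceed 0.14 FPKM, and these 4 genes had a sum of 48.4 to 62.1 FPKM in every library. The methods of the study describe male mice, so this library goes against them, and calls among the 10 genes are given with and without it. The marker lists and their genes were tested with all libraries only.

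**Figure D1:**
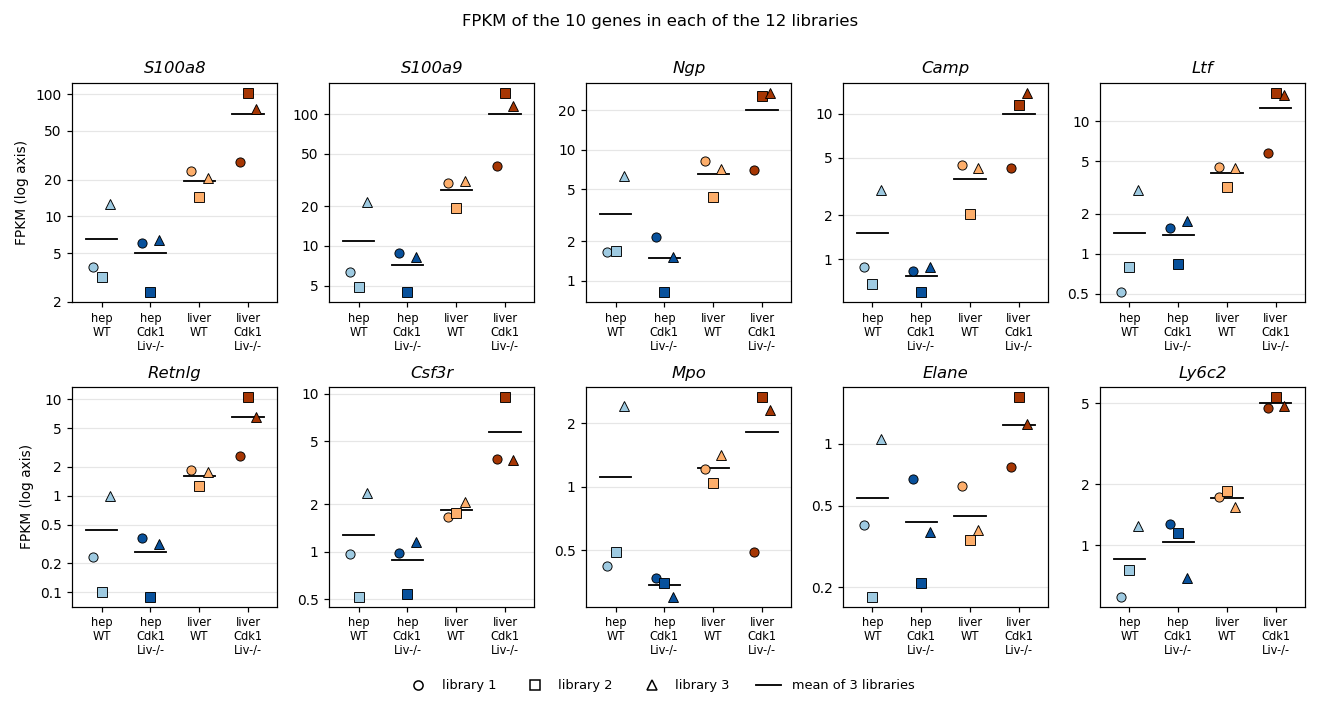
FPKM (log axis, its range set for each gene) of the 10 genes in the 12 libraries, by compartment and genotype; circles, squares and triangles are libraries 1, 2 and 3 and the bar is the group mean. S100a8 and S100a9 are highest in Cdk1 Liv-/- whole liver libraries 2 and 3, and WT hepatocytes library 3 lies above the rest of its group in each panel.

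In whole liver, 7 of the 10 genes rose in Cdk1 Liv-/- mice. They were S100a8, S100a9, Camp, Ltf, Retnlg, Csf3r and Ly6c2, and each reached the thresholds for a call in limma, which were 0.1 for the adjusted p and 1 for the size of the log2 fold change. The same call was made for 4.59% of all genes tested as higher and for 1.00% as lower, and 0 of the 10 were called lower. By adjusted p alone, 8 of the 10 were higher, where 38.0% of all genes tested were. In 7 of the 10 the 3 Cdk1 Liv-/- libraries all lay above the 3 WT libraries, as they did for 43.2% of all genes tested. Both of these rules took a large share of all genes, so the call with its fold threshold is the one reported for single members. The log2 fold changes of the 10 genes ran from 0.27 to 1.72 with a median of 1.335, where the median of all genes tested was 0.182. All fold changes, with their standard errors (SE), are on the log2(FPKM + 0.5) scale, which understates the change of genes with low FPKM. In bulk RNA, more cells of a type and more RNA in each cell cannot be told apart. After scaling by median-ratio size factors the median of all genes moved from 0.182 to 0.0135, and 6 of the 10 were called, Camp falling short at 1.06 (adjusted p = 0.169). That scaling changed the split of all calls from 798 higher and 174 lower to 515 higher and 242 lower.

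The number called rested on the test, the filter and single libraries. With the two-sample test 2 of the 10 genes were called, Ly6c2 and Csf3r, and the other 5 missed the threshold, with adjusted p of 0.11 for Ltf to 0.185 for Camp. With no filter the same 2 genes were called, and the other 5 had adjusted p of 0.101 for Ltf to 0.189 for Camp. Over all genes these settings called 744 and 752 higher, and the fits with 1 library left out 715 to 928. Of the 10 genes, 1 was called without WT library 1, 2 without WT library 2 and 4 without WT library 3. Without Cdk1 Liv-/- library 1 the number was 9, and it was 2 without library 2 and 2 without library 3, the library with Xist. Ly6c2 was called in each of these 6 fits. Csf3r kept its call except without WT library 1 (adjusted p = 0.106) and without Cdk1 Liv-/- library 2, where its log2 fold change was 0.89. S100a9 and Ltf kept theirs without WT library 3 or Cdk1 Liv-/- library 1, Retnlg without Cdk1 Liv-/- library 1 or 2, and S100a8 and Camp only without Cdk1 Liv-/- library 1. Without WT library 2 the adjusted p was 0.14 for S100a8, 0.125 for S100a9, 0.122 for Ltf, 0.128 for Retnlg and 0.228 for Camp. Without Cdk1 Liv-/- library 3 it was 0.134 for S100a8, 0.12 for S100a9, 0.117 for Ltf, 0.12 for Retnlg and 0.222 for Camp. A fit without Cdk1 Liv-/- libraries 1 and 3 was added after seeing the data. It leaves 1 library in that group and assumes that it varies like the others. The log2 fold change of Mpo was 0.89 there.

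In isolated hepatocytes, none of the 10 genes was called in either direction by limma, where 4.20% of all genes tested were called higher and 2.17% lower. None of them reached an unadjusted p below 0.05, which 4938 of the 17386 genes tested did. A two-sample test with equal variances and the same thresholds also called 0. Their log2 fold changes ran from -0.73 to 0.19, with 2 above 0 and 8 below, and the adjusted p from 0.335 to 0.87. The median over the 10 genes was -0.235, and that of all genes tested was 0.049. Leaving out WT library 3 or any other library led to no call among the 10.

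**Figure D2:**
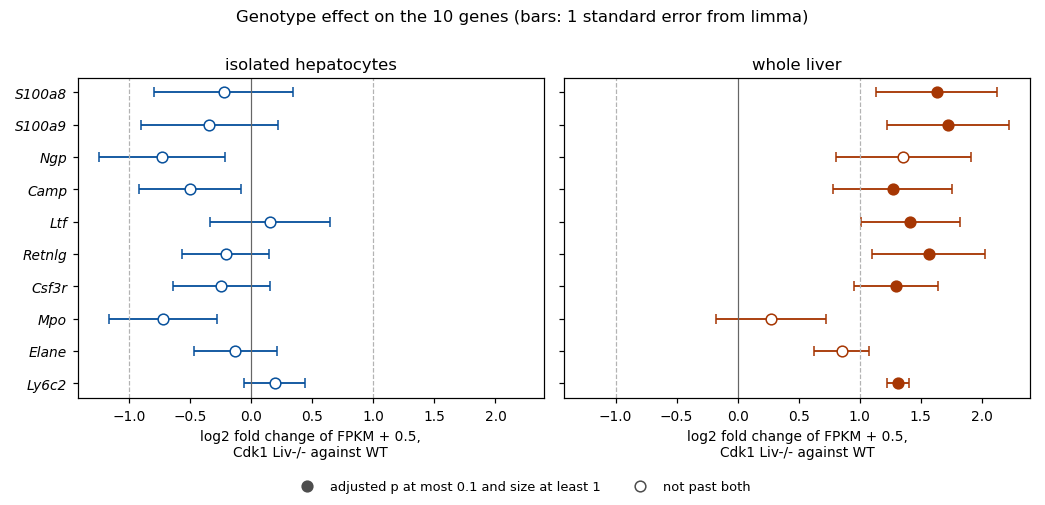
Log2 fold change of Cdk1 Liv-/- against WT on the log2(FPKM + 0.5) scale, with its standard error, for each of the 10 genes in isolated hepatocytes and in whole liver. Every whole liver estimate is above 0, and the hepatocyte estimates lie between -0.73 and 0.19.

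S100a8 and S100a9 encode the subunits of calprotectin, a calcium and zinc binding heterodimer that makes up a large part of the cytosol of neutrophils and signals through TLR4 and RAGE when released. S100a8 (ENSMUSG00000056054, chr3:90668978-90670035, plus strand) and S100a9 (ENSMUSG00000056071, chr3:90692632-90695721, minus strand) are neighbours separated by 22.6 kb, on opposite strands (GRCm38, GENCODE M21). Because they rose together, the 250 bases before their RefSeq start sites are shown (GRCm38.p6), at chr3:90668821-90669070 on the plus strand and chr3:90695722-90695971 on the minus strand. The RefSeq start of S100a8 lies downstream of the GENCODE start given here, so the end of its window is within the gene by GENCODE. All 10 genes had a promoter in RefSeq, Ly6c2 with 2 start sites. Capitals mark matches on either strand to TTGCNNAA, a core letter pattern of the C/EBP transcription factors that act in granulocyte formation.
S100a8: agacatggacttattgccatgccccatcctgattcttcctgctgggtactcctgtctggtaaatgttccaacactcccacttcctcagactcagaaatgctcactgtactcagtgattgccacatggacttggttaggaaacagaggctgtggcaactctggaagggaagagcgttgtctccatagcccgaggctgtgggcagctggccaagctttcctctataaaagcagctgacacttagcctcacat
S100a9: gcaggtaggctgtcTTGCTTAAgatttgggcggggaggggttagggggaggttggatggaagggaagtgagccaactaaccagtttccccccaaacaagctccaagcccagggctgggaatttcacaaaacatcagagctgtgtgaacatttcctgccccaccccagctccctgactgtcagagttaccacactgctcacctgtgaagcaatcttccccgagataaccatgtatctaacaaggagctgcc
S100a9 holds 1 match, 236 bases before its RefSeq start, and S100a8 holds none. S100a8 has the TATA box letters TATAAA 30 bases before its RefSeq start, in the part within the GENCODE gene, and is the only member with them, where 12.4% of 32851 mouse promoters of this length have them on either strand. The C/EBP letters were found in 4 of the 10 genes and in 9.6% of all promoters, and GAGGAA, a purine-rich pattern of ETS factors such as PU.1, in 6 of the 10 and in 23.3% of all promoters. A match is a description of the letters and not a binding site.

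S100a9 was the most abundant of the 10 genes in every library, on the FPKM scale, with S100a8 next. In whole liver S100a8 was at 23.3, 14.3 and 20.5 FPKM in the WT libraries and at 27.7, 103 and 75.3 FPKM in the Cdk1 Liv-/- libraries. S100a9 was at 30.0, 19.3 and 30.9 FPKM in WT and at 40.3, 146 and 114 FPKM in Cdk1 Liv-/- whole liver. Both genes were several times the WT level in Cdk1 Liv-/- libraries 2 and 3 and only just above the highest WT library in library 1, and the genotypes did not overlap. The mean of S100a8 rose from 19.4 ± 4.6 to 68.5 ± 38.0 FPKM (SD, n = 3 each), a ratio of 3.54, and its log2 fold change was 1.63 (SE 0.50, adjusted p = 0.0505 from limma). S100a9 rose from 26.8 ± 6.48 to 100 ± 54.0 FPKM, a ratio of 3.74 and a log2 fold change of 1.72 (SE 0.50, adjusted p = 0.044). In hepatocytes S100a8 was at 3.89, 3.2 and 12.6 FPKM in WT and at 6.09, 2.39 and 6.47 FPKM in Cdk1 Liv-/- libraries, and S100a9 at 6.32, 4.9 and 21.5 and at 8.78, 4.43 and 8.18 FPKM. The genotypes overlapped for both genes, and WT library 3 was the highest hepatocyte library. The log2 fold changes in hepatocytes were -0.23 for S100a8 (SE 0.57, adjusted p = 0.83) and -0.34 for S100a9 (SE 0.56, adjusted p = 0.728). Without WT library 3 they were 0.34 and 0.28, with adjusted p of 0.674 and 0.645.

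Ngp, Camp and Ltf encode proteins of the specific granules, which are made at the myelocyte stage. Ngp is a cathelin-related granule protein, Camp the precursor of the antimicrobial peptide CRAMP, and Ltf the iron-binding lactoferrin. All 3 genes lie on chromosome 9, Camp (ENSMUSG00000038357, chr9:109847379-109849617, minus strand) 570.1 kb from Ngp (ENSMUSG00000032484, chr9:110419747-110423012, plus strand) and Ngp 596.3 kb from Ltf (ENSMUSG00000032496, chr9:111019271-111042767, plus strand). The 250 bases before the RefSeq start of Ngp, at chr9:110419558-110419807 on the plus strand, and of Ltf, at chr9:111019042-111019291 on the plus strand (GRCm38.p6), are shown as the promoters of specific granule genes that hold the C/EBP letters, in capitals.
Ngp: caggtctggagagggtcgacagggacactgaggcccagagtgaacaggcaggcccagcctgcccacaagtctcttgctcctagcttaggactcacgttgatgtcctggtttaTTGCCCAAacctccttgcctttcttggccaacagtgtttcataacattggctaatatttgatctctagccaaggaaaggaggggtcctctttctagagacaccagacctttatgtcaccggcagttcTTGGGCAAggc
Ltf: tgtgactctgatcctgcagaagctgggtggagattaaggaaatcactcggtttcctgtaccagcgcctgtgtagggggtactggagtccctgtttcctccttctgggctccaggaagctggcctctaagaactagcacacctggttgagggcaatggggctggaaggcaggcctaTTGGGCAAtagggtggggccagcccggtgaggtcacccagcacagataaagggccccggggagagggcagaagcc
Ngp holds 2 matches, 138 and 11 bases before its RefSeq start, and Ltf 1, 75 bases before its RefSeq start. The same window of Camp holds none. Both RefSeq starts lie downstream of the GENCODE starts given here, and the match of Ngp at 11 bases is within the gene by GENCODE. Retnlg, described further on, is the remaining gene with a match, 246 bases before its RefSeq start.

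In whole liver Ngp was at 8.18, 4.38 and 7.13 FPKM in WT and at 6.95, 25.7 and 27.3 FPKM in Cdk1 Liv-/- libraries. Camp was at 4.42, 2.03 and 4.21 FPKM in WT and at 4.24, 11.5 and 14 FPKM in Cdk1 Liv-/- libraries. Ltf was at 4.52, 3.19 and 4.46 FPKM in WT and at 5.79, 16.4 and 15.8 FPKM in Cdk1 Liv-/- libraries. Libraries 2 and 3 of Cdk1 Liv-/- liver were far above WT for all 3 genes, but library 1 lay within the WT range for Ngp and Camp and above it for Ltf. Ltf therefore separated the genotypes and rose from 4.06 ± 0.751 to 12.7 ± 5.97 FPKM (SD, n = 3 each), and its log2 fold change was 1.41 (SE 0.41, adjusted p = 0.0431). Camp rose from 3.55 ± 1.32 to 9.90 ± 5.06 FPKM, with a log2 fold change of 1.27 (SE 0.49, adjusted p = 0.0925). Ngp, at 6.56 ± 1.96 in WT and 20 ± 11.3 FPKM in Cdk1 Liv-/- liver, had a log2 fold change of 1.36 and missed the threshold (SE 0.55, adjusted p = 0.108). Without Cdk1 Liv-/- library 1 its log2 fold change was 1.98 (adjusted p = 0.012).

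In hepatocytes Ngp was at 1.64, 1.69 and 6.31 FPKM in WT and at 2.15, 0.81 and 1.5 FPKM in Cdk1 Liv-/- libraries. Camp was at 0.88, 0.68 and 3.0 FPKM in WT and at 0.83, 0.59 and 0.88 FPKM in Cdk1 Liv-/- libraries. Ltf was at 0.51, 0.79 and 3.02 FPKM in WT and at 1.57, 0.84 and 1.77 FPKM in Cdk1 Liv-/- libraries. WT library 3 was the highest of the 6 for each of these genes, and the genotypes overlapped. The log2 fold changes were -0.73 for Ngp, -0.50 for Camp and 0.15 for Ltf, with SEs of 0.52, 0.42 and 0.49 and adjusted p of 0.397, 0.468 and 0.87 from limma. The ratio of Ltf to Ngp in FPKM was 0.311, 0.467 and 0.479 in WT hepatocytes and 0.730, 1.04 and 1.18 in Cdk1 Liv-/- hepatocytes. It did not overlap between the genotypes there, while in whole liver it was 0.553, 0.728 and 0.626 in WT and 0.833, 0.639 and 0.579 in Cdk1 Liv-/- libraries and overlapped. The ratio was singled out after the values were seen and was not tested. Camp to Ngp, by contrast, overlapped in both compartments and stayed between 0.386 and 0.728 in all 12 libraries.

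Retnlg (ENSMUSG00000022651, chr16:48872621-48874496, plus strand) encodes a resistin-like secreted protein of mature neutrophils, and Csf3r (ENSMUSG00000028859, chr4:126024550-126044440, plus strand) the receptor for granulocyte colony-stimulating factor, which drives neutrophil production and release. In whole liver Retnlg was at 1.84, 1.25 and 1.77 FPKM in WT and at 2.59, 10.6 and 6.52 FPKM in Cdk1 Liv-/- libraries. Csf3r was at 1.67, 1.77 and 2.06 FPKM in WT and at 3.86, 9.55 and 3.79 FPKM in Cdk1 Liv-/- libraries. Every Cdk1 Liv-/- library was above every WT library for both genes, with library 2 the highest, and Csf3r in libraries 1 and 3 was nearly equal. Retnlg rose from 1.62 ± 0.322 to 6.57 ± 4.01 FPKM (SD, n = 3 each), a ratio of 4.06, the highest ratio of means of the 10 genes. Its log2 fold change was 1.57 (SE 0.46, adjusted p = 0.0463). Csf3r rose from 1.83 ± 0.203 to 5.73 ± 3.31 FPKM, with a log2 fold change of 1.30 (SE 0.34, adjusted p = 0.0343). In hepatocytes Retnlg was at 0.23, 0.1 and 0.99 FPKM in WT and at 0.37, 0.09 and 0.32 FPKM in Cdk1 Liv-/- libraries, and Csf3r at 0.97, 0.52 and 2.34 and at 0.99, 0.54 and 1.15 FPKM. Both genes overlapped between the genotypes, with log2 fold changes of -0.21 (SE 0.36, adjusted p = 0.739) for Retnlg and -0.25 (SE 0.40, adjusted p = 0.728) for Csf3r. Csf3r shares 2.95% of the windows of 75 bases in its transcripts with other genes, so a small part of its reads could have been placed elsewhere.

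Mpo (ENSMUSG00000009350, chr11:87793581-87804413, plus strand) encodes myeloperoxidase, which makes hypochlorous acid, and Elane (ENSMUSG00000020125, chr10:79886247-79888215, plus strand) the serine protease neutrophil elastase. Both are azurophil granule proteins whose transcripts are made by promyelocytes and are low in mature neutrophils. In whole liver Mpo was at 1.21, 1.04 and 1.41 FPKM in WT and at 0.49, 2.67 and 2.32 FPKM in Cdk1 Liv-/- libraries. Elane was at 0.62, 0.34 and 0.38 FPKM in WT and at 0.77, 1.69 and 1.25 FPKM in Cdk1 Liv-/- libraries. Cdk1 Liv-/- library 1 lay below all WT libraries for Mpo and above them for Elane, so the genotypes overlapped for Mpo only. The log2 fold change of Mpo was 0.27 (SE 0.45, adjusted p = 0.666), the smallest of the 10 genes in whole liver. Without Cdk1 Liv-/- library 1 it was 0.80 (adjusted p = 0.0172), and without library 2 it was -0.04 (adjusted p = 0.962). Elane went from 0.447 ± 0.151 to 1.24 ± 0.460 FPKM (SD, n = 3 each), and its log2 fold change was 0.85 (SE 0.23, adjusted p = 0.034), which met the limit on the adjusted p and missed the fold threshold. With a pseudocount of 0.1, which compresses low values less, Elane was at 1.26 (adjusted p = 0.0324) and was called.

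In hepatocytes Mpo was at 0.42, 0.49 and 2.43 FPKM in WT and at 0.37, 0.35 and 0.3 FPKM in Cdk1 Liv-/- libraries. It was the only one of the 10 genes whose genotypes did not overlap in hepatocytes, with all Cdk1 Liv-/- libraries lower, as in 13.4% of all genes tested, but its log2 fold change of -0.72 did not pass (SE 0.45, adjusted p = 0.335). Without WT library 3 the estimate was -0.19 (adjusted p = 0.355). Elane was at 0.4, 0.18 and 1.05 FPKM in WT and at 0.67, 0.21 and 0.37 FPKM in Cdk1 Liv-/- hepatocytes, an overlap of the genotypes with a log2 fold change of -0.13 (SE 0.34, adjusted p = 0.835). The ratio of Mpo to S100a9 in FPKM, which sets an early granule gene against a late gene of the lineage, was 0.0403, 0.0539 and 0.0456 in WT whole liver and 0.0122, 0.0183 and 0.0203 in Cdk1 Liv-/- whole liver. All 3 Cdk1 Liv-/- livers were below the WT livers in this ratio. In hepatocytes it was 0.0665, 0.1 and 0.113 in WT and 0.0421, 0.0790 and 0.0367 in Cdk1 Liv-/- libraries, which overlapped. Elane to Mpo was 0.512, 0.327 and 0.270 in WT and 1.57, 0.633 and 0.539 in Cdk1 Liv-/- whole liver, without overlap. Its hepatocyte values of 0.952, 0.367 and 0.432 in WT and 1.81, 0.6 and 1.23 in Cdk1 Liv-/- libraries overlapped. These ratios were chosen after the values were seen and were not tested.

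Ly6c2 (ENSMUSG00000022584, chr15:75108158-75111970, minus strand) encodes Ly6C2, a surface protein by which inflammatory monocytes are sorted. In whole liver it was at 1.74, 1.86 and 1.54 FPKM in WT and at 4.75, 5.37 and 4.87 FPKM in Cdk1 Liv-/- libraries. The 3 Cdk1 Liv-/- livers were nearly equal and far above the WT livers, and library 1, which was low in the granule genes, was at the level of libraries 2 and 3. Ly6c2 rose from 1.71 ± 0.162 to 5.0 ± 0.329 FPKM (SD, n = 3 each), a ratio of 2.92 and a log2 fold change of 1.31 (SE 0.09, adjusted p = 0.000739 from limma). It had the lowest adjusted p of the 10 genes and was called under all 14 settings, with log2 fold changes of 1.12 to 1.49 and adjusted p of 0.000739 to 0.0174. In hepatocytes Ly6c2 was at 0.56, 0.76 and 1.25 FPKM in WT and at 1.27, 1.15 and 0.69 FPKM in Cdk1 Liv-/- libraries, which overlapped, and its log2 fold change was 0.19 (SE 0.25, adjusted p = 0.655). Its paralog Ly6c1 (ENSMUSG00000079018, chr15:75044018-75048830, minus strand), which endothelial and T cells also carry, lies 59.3 kb away. It was at 0.23, 0.81 and 0.92 FPKM in WT and 1.16, 1.04 and 0.95 FPKM in Cdk1 Liv-/- whole liver, at a log2 fold change of 0.48 (adjusted p = 0.199). In hepatocytes Ly6c1 rose from 0.06, 0 and 0.18 FPKM to 1.21, 0.56 and 0.6 FPKM, a log2 fold change of 1.13 (SE 0.22, adjusted p = 0.0294), where Ly6c2 was not called. Of the windows of 75 bases in Ly6c2 transcripts, 9.46% also occur in Ly6c1. Of those in Ly6c1 transcripts, 19.05% also occur in Ly6a or Ly6c2. The values of these paralogs are therefore uncertain by the reads that the counting could have split between them.

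**Figure D3:**
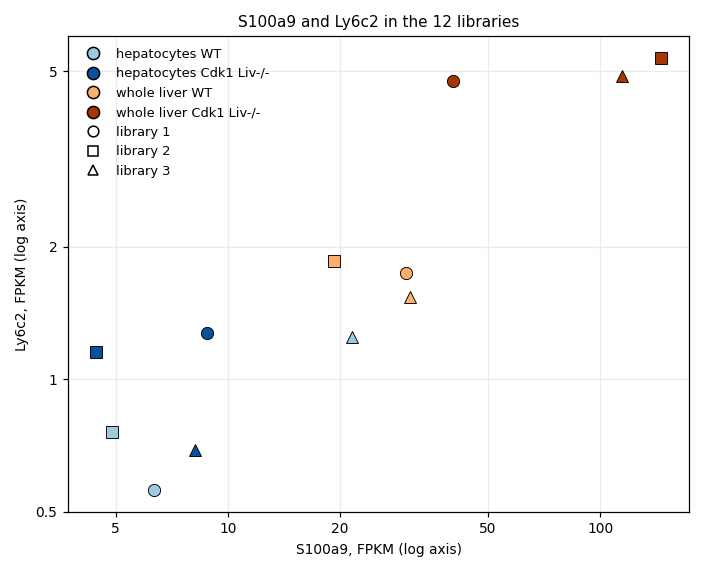
FPKM of S100a9 (x axis, log) against Ly6c2 (y axis, log) in the 12 libraries, coloured by group and with a symbol for each library number. The Cdk1 Liv-/- whole liver libraries span 40.3 to 145.5 FPKM of S100a9 at 4.75 to 5.37 FPKM of Ly6c2.

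Whether the genotype effect differed between the compartments was tested as the interaction in 1 fit of all 12 libraries, expressed as the effect in hepatocytes minus that in whole liver. It shares its libraries with the 2 comparisons above. All 10 estimates were below 0, from -2.09 to -0.98 with a median of -1.659, where the median of all genes tested was -0.106. Of the 10 genes, 8 had an unadjusted p below 0.05, as did 4104 of the 17386 genes tested. Among the 10, 1, Ly6c2, was called lower, where 3.15% of all genes tested were called lower. Its difference was -1.12 (SE 0.28, adjusted p = 0.0608). The adjusted p of the other members ran up to 0.404 for Mpo, and S100a8, at -1.86 (SE 0.80, adjusted p = 0.191), and S100a9, at -2.07 (SE 0.79, adjusted p = 0.15), did not pass. Thus most members were called in whole liver and not in hepatocytes, but the difference itself passed its test for Ly6c2 alone. The number called was 6 without WT hepatocytes library 2, where 1098 of all genes were called lower, and 5 without Cdk1 Liv-/- whole liver library 1, where 433 were. It was 0 without WT hepatocytes library 3, where Ly6c2 was at -0.92, and without Cdk1 Liv-/- hepatocytes library 3, where it was at -0.95. The call of Ly6c2 also ended without WT whole liver library 1, 2 or 3 (adjusted p = 0.148, 0.11 and 0.116) and without Cdk1 Liv-/- whole liver library 2 or 3 (adjusted p = 0.124 and 0.102). With size factors Ly6c2 was at -0.97 (adjusted p = 0.0919), short of the fold threshold, and the median of all genes moved from -0.106 to 0.0089. The calls over all genes went from 140 higher and 548 lower to 189 higher and 271 lower.

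The isolated hepatocytes were also compared with whole liver within each genotype. The source of the RNA of these genes in the hepatocyte libraries was not tested. In WT mice none of the 10 genes was called by limma, where 0.426% of all genes tested were called lower, and 5 of the 10 had an unadjusted p below 0.05, as did 3270 of the 17386 genes tested. The two-sample test also called 0 of them. In 4 genes, S100a8, Ltf, Retnlg and Ly6c2, all hepatocyte libraries lay below all whole liver libraries, as they did for 20.7% of all genes tested. The log2 differences of the 10 genes had a median of -1.117 against -0.097 for all genes, from -1.71 for S100a8 (SE 0.50, adjusted p = 0.179) to 0.07 for Elane (SE 0.31, adjusted p = 0.922). Without WT hepatocytes library 3, 6 of the 10 genes were called lower in hepatocytes, and the calls over all genes went from 74 to 472 lower. They were S100a8 at -2.27 (adjusted p = 0.0315), S100a9 at -2.14, Ltf at -1.98, Retnlg at -1.67, Ngp at -1.66 and Camp at -1.61.

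In Cdk1 Liv-/- mice 9 of the 10 genes were called lower in hepatocytes than in whole liver, where 9.46% of all genes tested were. This was not particular to them. From the marker lists, all 8 sinusoidal endothelial, all 7 stellate cell, all 7 all-leukocyte and 10 of 11 Kupffer cell genes were called lower. It was 7 of 9 for erythroid genes, 6 of 10 for B cell and 6 of 10 for T and NK cell genes. Of 10 hepatocyte genes 0 were called lower and 3 higher. By adjusted p alone it was 10 of 10, against 35.9% of all genes, and in 10 of 10 the compartments did not overlap, against 40.3% of all genes. With size factors the calls over all genes moved from 262 higher and 1644 lower to 460 higher and 1232 lower and their median from -0.19 to 0.0128, and 9 of the 10 genes were called. The largest differences were -3.58 for S100a9 (SE 0.51, adjusted p = 0.00398) and -3.56 for S100a8 (SE 0.56, adjusted p = 0.00558). The hepatocyte mean was 0.0713 of the whole liver mean for S100a9 and 0.0396 for Retnlg in Cdk1 Liv-/- mice. The same ratio was 0.186 for Mpo, 0.208 for Ly6c2 and 0.337 for Elane, the gene that passed the adjusted p (0.0395) but not the fold threshold, at -0.92. In WT mice the ratio was 0.408 for S100a9, 0.913 for Mpo, 0.5 for Ly6c2 and 1.22 for Elane. Mpo, at -1.30 (SE 0.44, adjusted p = 0.062), lost its call without Cdk1 Liv-/- hepatocytes library 1, 2 or 3 (adjusted p = 0.124, 0.128 and 0.149) and without whole liver library 2 or 3 (0.166 and 0.173). The WT and Cdk1 Liv-/- comparisons share no libraries with each other, but each shares its libraries with the genotype comparisons.

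Of the late genes, S100a8 and S100a9 kept close proportions. The ratio of S100a8 to S100a9 in FPKM lay between 0.540 and 0.791 in all 12 libraries, and both together made up 59.8% to 74.8% of the summed FPKM of the 10 genes. Retnlg to S100a9 varied more, at 0.02 to 0.046 in WT and 0.02 to 0.042 in Cdk1 Liv-/- hepatocytes. In whole liver it was 0.057 to 0.065 in WT and 0.057 to 0.073 in Cdk1 Liv-/- libraries. Over the 12 libraries, the Pearson correlation of log2(FPKM + 0.5) was 0.996 for S100a8 with S100a9, 0.991 for S100a8 with Retnlg and 0.989 for Ngp with Camp. It was 0.743 for Mpo with Elane, and lowest, at 0.587, for Mpo with Ly6c2. These coefficients are descriptive, since the 12 libraries fall into 4 groups and members share each library's depth and cell makeup. Set against Ptprc, the common leukocyte antigen CD45, S100a9 was 8.63, 5.21 and 8.84 times as high in FPKM in WT whole liver and 8.47, 17.7 and 24.3 times in Cdk1 Liv-/- whole liver. Library 1 of Cdk1 Liv-/- liver thus lay in the WT range of this ratio, and libraries 2 and 3 above it.

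By the fixed rule of likeness, the 5 genes closest to S100a8 over the 12 libraries, among the 12273 genes outside the 10 that averaged 1 FPKM or more, were Cytip (Pearson r 0.98), Commd8 (0.979), Rpl13 (0.977), Rplp2 (0.973) and Gm5483 (0.973). Gm5483 was at 2.31, 1.72 and 2.18 FPKM in WT and 4.07, 20.4 and 9.71 FPKM in Cdk1 Liv-/- whole liver, a spread across libraries like that of S100a8. Closest to Mpo were Stfa1 (0.923), Fabp4 (0.918), Dnajc7 (0.916), Fam234a (0.907) and Nxf1 (0.906). Stfa1 shared with Mpo the low value in Cdk1 Liv-/- library 1, where it was listed at 0, against 11 and 6.44 FPKM in libraries 2 and 3. Closest to Ly6c2 were Eif3g (0.994), Khdrbs1 (0.986), Tmed10 (0.984), Taf11 (0.983) and Trp53 (0.981). Eif3g was at 38.2, 38.5 and 37.5 FPKM in WT and 46.4, 48.6 and 47.7 FPKM in Cdk1 Liv-/- whole liver, where Ly6c2 was also even across libraries. The coefficients are again a description over 12 libraries in 4 groups, without a test.

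Further genes of the same granules and cells were read from marker lists. Lists were compared by how many tested genes were called and by their median log2 fold change, beside the whole liver median of 0.182 and the hepatocyte median of 0.049 over all genes tested. The most abundant gene of a list is the one with the highest mean FPKM of the 12 libraries, and need not lead in each group. Of the azurophil granule and promyelocyte list, 5 of 6 genes were tested, and 1, Prtn3, was called higher in hepatocytes and in whole liver, with medians of -0.131 and 0.477. Prtn3 encodes proteinase 3, the neighbour of elastase in the genome and in the granule. It was at 1.52, 1.31 and 2.66 FPKM in WT and at 15.3, 12.9 and 21.7 FPKM in Cdk1 Liv-/- hepatocytes, and at 1.65, 0.89 and 2.32 and 5.22, 11.3 and 7.03 FPKM in whole liver. Every Cdk1 Liv-/- library was above every WT library in both compartments, and Cdk1 Liv-/- hepatocytes were above Cdk1 Liv-/- whole liver, unlike Mpo and Elane. Prtn3 rose by 2.89 in hepatocytes (SE 0.28, adjusted p = 0.00353) and by 1.97 in whole liver (SE 0.36, adjusted p = 0.0116), in log2 units. The other tested genes of that list that are not among the 10, Ctsg and Ms4a3, were at most 0.54 FPKM in any library and were not called.

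Of the 12 specific and gelatinase granule genes, all tested, 2 were called higher in hepatocytes and 4 in whole liver, with medians of -0.025 and 0.879. Lcn2, which encodes the iron-scavenging lipocalin 2 of specific granules and is also made by hepatocytes in the acute phase response, was the most abundant. It was at 8.37, 10.1 and 9.28 FPKM in WT and at 450, 559 and 963 FPKM in Cdk1 Liv-/- hepatocytes, and at 14.5, 11.7 and 14.4 and 383, 662 and 516 FPKM in whole liver. The genotypes were far apart in both compartments, by log2 fold changes of 6.0 (adjusted p = 0.000491) in hepatocytes and 5.19 (adjusted p = 0.000172) in whole liver. Pglyrp1, a peptidoglycan recognition protein of granules, was at 0.26, 0.38 and 0.68 FPKM in WT and 2.37, 1.11 and 1.2 FPKM in Cdk1 Liv-/- hepatocytes and rose by 1.11 (adjusted p = 0.0602). In whole liver Pglyrp1 rose by 2.05 (adjusted p = 0.00506), from 0.43, 0.42 and 0.82 to 2.66, 5.54 and 3.72 FPKM. The lowest whole liver estimates of the list were 0.44 for Olfm4 (adjusted p = 0.0452) and 0.51 for Fcnb (adjusted p = 0.248), both under 1.1 FPKM in every library. Without the members, 2 of 9 genes were called higher in whole liver.

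**Figure D4:**
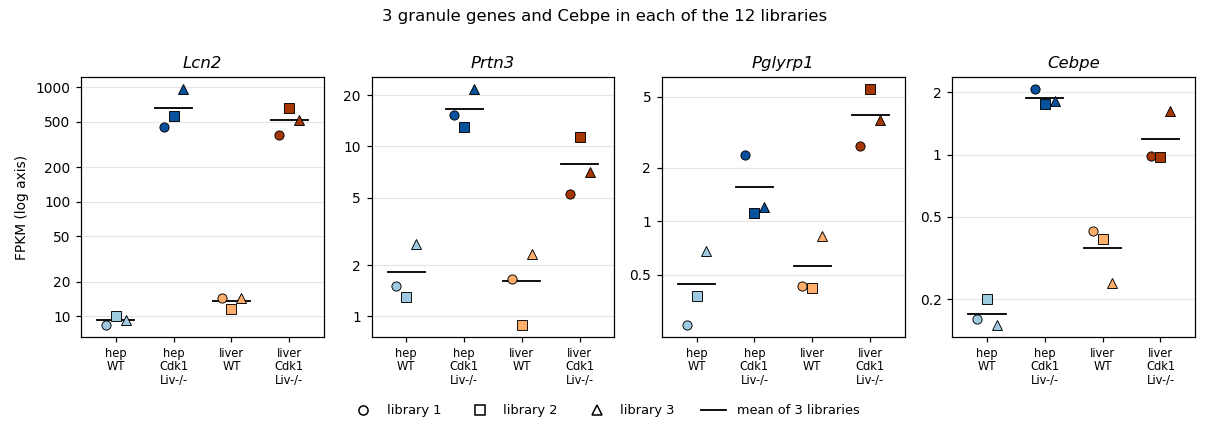
FPKM (log axis) of Lcn2, Prtn3, Pglyrp1 and Cebpe in the 12 libraries by compartment and genotype, with the group mean as a bar; symbols are libraries 1, 2 and 3. In each of these 4 genes all Cdk1 Liv-/- hepatocyte libraries lie above all WT hepatocyte libraries, which none of the 10 genes showed and 20.6% of all genes tested did.

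Of the mature neutrophil list, 19 of 20 genes were in the table and 16 were tested. In whole liver 10 were called higher and 0 lower with a median of 1.257, and without the members it was 6 of 12 with a median of 0.995. In hepatocytes 0 were called higher and 1 lower with a median of -0.021. The highest whole liver estimates were those of Stfa2 and Stfa2l1, stefin A cysteine protease inhibitors of neutrophils. Stfa2 was at 1.7, 1.1 and 1.39 FPKM in WT and 4.61, 17.5 and 11.6 FPKM in Cdk1 Liv-/- livers, a rise of 2.46 in log2 units (SE 0.46, adjusted p = 0.0127). Stfa2l1 was at 0.8, 0.56 and 1.22 and 2.43, 13.6 and 6.92 FPKM and rose by 2.34 (SE 0.57, adjusted p = 0.0273). Both ranked the Cdk1 Liv-/- livers as S100a9 did, with library 2 highest and library 1 lowest. The formyl peptide receptor genes Fpr1 and Fpr2 had the lowest estimates of the list in both compartments. Fpr1 fell in hepatocytes from 2.7, 1.78 and 5.14 to 1.46, 0.85 and 0.78 FPKM, a log2 fold change of -1.20 (adjusted p = 0.0903), and Fpr2 was at -0.76 (adjusted p = 0.0949), under the fold threshold. Their whole liver values were -0.20 for Fpr1 (adjusted p = 0.0591) and 0.05 for Fpr2 (adjusted p = 0.806). Ly6g, the antigen by which mouse neutrophils are defined and a gene named here after its values were seen, was low. It was listed at 0 in 3 of the 12 libraries, at 0.09, 0.09 and 0.18 FPKM in WT and 0.17, 0.44 and 0.95 FPKM in Cdk1 Liv-/- livers.

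Of the 13 monocyte genes, all tested, 7 were called higher in whole liver and 0 lower with a median of 1.043, and 1 higher in hepatocytes with a median of -0.040. Without Ly6c2 it was 6 of 12 in whole liver, with a median of 0.968. Ccr2, the chemokine receptor for monocyte exit from the marrow, was at 0.77, 0.57 and 0.62 FPKM in WT and 4.72, 6.47 and 4.05 FPKM in Cdk1 Liv-/- livers, a rise of 2.26 in log2 units (SE 0.17, adjusted p = 0.00112). It also rose in hepatocytes, from 0.23, 0.16 and 0.26 to 0.89, 1.04 and 1.5 FPKM, by 1.18 (SE 0.17, adjusted p = 0.0109), where Ly6c2 was not called. Plac8, the most abundant gene of the list, was at 21.4, 22.0 and 19.8 FPKM in WT and 50.6, 49.4 and 44.3 FPKM in Cdk1 Liv-/- livers. Like Ly6c2 it was even across the Cdk1 Liv-/- livers, and it rose by 1.17 (SE 0.07, adjusted p = 0.00053). Ifitm6, an interferon-induced membrane protein gene, rose by 1.40 (adjusted p = 0.0301). The smallest whole liver log2 fold changes of the list were 0.22 for Spn (adjusted p = 0.251) and 0.24 for Treml4 (adjusted p = 0.292). The summed FPKM of the monocyte list was 40.6, 41.2 and 39.8 in WT and 89.9, 105 and 79.2 in Cdk1 Liv-/- whole liver, and that of the mature neutrophil list 67.7, 46.8 and 66.1 and 92.7, 319 and 231. In these sums Cdk1 Liv-/- library 1 lay between the others for the monocyte list, to which Plac8 gave a large part, and was the lowest of its group for the neutrophil list. Single monocyte genes differed in this, and Ifitm6, at 2.02, 5.99 and 2.53 FPKM in the Cdk1 Liv-/- livers, was lowest in library 1.

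Of 15 genes for granulocyte and monocyte production, which include Csf3r, 14 were tested. In whole liver 3 were called higher with a median of 0.670, and 1 in hepatocytes with a median of -0.123. The called gene in hepatocytes was Cebpe, the C/EBP factor that turns on specific granule genes. It was at 0.16, 0.2 and 0.15 FPKM in WT and 2.08, 1.76 and 1.82 FPKM in Cdk1 Liv-/- hepatocytes, a rise of 1.83 in log2 units (SE 0.12, adjusted p = 0.00136). In whole liver Cebpe was at 0.43, 0.39 and 0.24 and 0.99, 0.98 and 1.62 FPKM, with a log2 fold change of 0.98 (adjusted p = 0.0115), short of the fold threshold. Ngp, Camp and Ltf were not called in hepatocytes, at log2 fold changes of -0.73, -0.50 and 0.15, and their relation to Cebpe was not tested. Cebpa, the most abundant of the list and also a hepatocyte factor, was at 95.8, 89.7 and 79.3 FPKM in WT and 60.9, 59.5 and 65.3 FPKM in Cdk1 Liv-/- livers, with a log2 fold change of -0.51 (adjusted p = 0.00896). The lowest hepatocyte estimates of the list, neither of them called, were -1.11 for Csf1r (adjusted p = 0.125), the receptor gene of macrophage growth factor, and -0.58 for Spi1 (adjusted p = 0.382), which encodes PU.1. Cebpd, which takes part in the acute phase response, rose by 1.14 in whole liver (adjusted p = 0.058). Csf3, the ligand of Csf3r and a gene named after its values were seen, was listed at 0 in 9 of the 12 libraries and was at most 0.13 FPKM.

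Of the leukocyte recruitment and adhesion list of 19 genes, Itgam is in the table under 2 gene identifiers, and 18 of the 20 entries were tested. In whole liver 9 were called higher and 0 lower with a median of 0.995, and in hepatocytes 3 higher and 1 lower with a median of 0.126. Ccl2, the ligand of CCR2, was at 0.59, 0.21 and 1.0 FPKM in WT and 3.46, 3.91 and 6.11 FPKM in Cdk1 Liv-/- hepatocytes, and at 1.18, 0.98 and 0.97 and 20.4, 13.5 and 9.19 FPKM in whole liver. It rose by 2.21 in hepatocytes (adjusted p = 0.0126) and by 3.20 in whole liver (adjusted p = 0.00152). Cxcl1, a neutrophil attractant that acts through CXCR2, was at 9.55, 6.28 and 2.14 FPKM in WT and 52.3, 34.8 and 29.9 FPKM in Cdk1 Liv-/- hepatocytes and rose by 2.77 (adjusted p = 0.0224), and in whole liver by 1.94 (adjusted p = 0.00847). Cxcl12, which holds neutrophils and progenitors in the marrow, fell in hepatocytes from 153, 134 and 127 to 67.3, 72.3 and 42.0 FPKM, a log2 fold change of -1.22 (adjusted p = 0.0201). Of 7 calprotectin receptors and adaptors, 2 were called higher in whole liver and 0 in hepatocytes, with medians of 0.507 and -0.094. They were Cd14, which rose from 1.56, 2.11 and 2.19 to 18.1, 23.3 and 17.7 FPKM by 3.04 (adjusted p = 0.000296), and Cd36, which rose by 1.03 (adjusted p = 0.0733). Tlr4 was at 0.86, 0.84 and 0.73 and 1.11, 1.45 and 0.89 FPKM, a log2 fold change of 0.32 (adjusted p = 0.125).

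**Figure D5:**
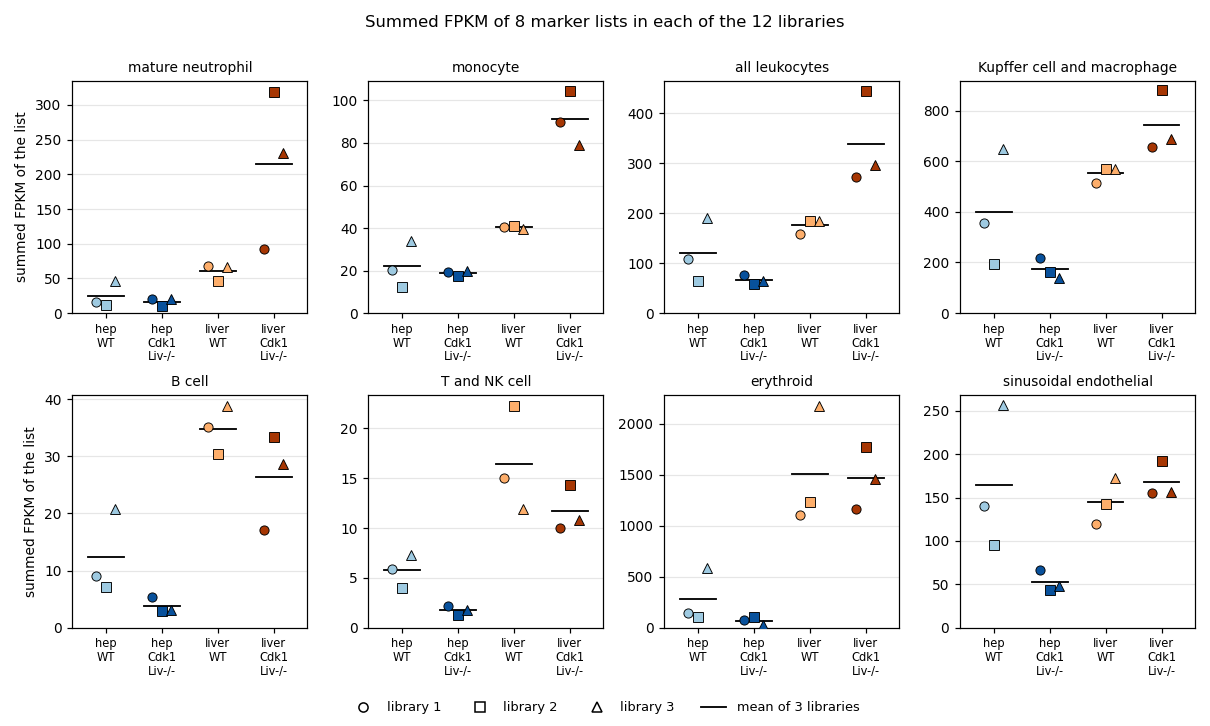
Summed FPKM (linear axis from 0, its range set for each panel) of 8 marker lists in the 12 libraries by compartment and genotype; circles, squares and triangles are libraries 1, 2 and 3 and the bar is the group mean. Neutrophil and monocyte sums are highest in Cdk1 Liv-/- whole liver, and WT hepatocytes library 3 is the highest of its group in most panels.

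Lists of other cell types of the organ were read beside the 10 genes, and their part in the results was not tested. Of 7 genes of all leukocytes, 1, the lysozyme gene Lyz2, was called higher in whole liver, though all 7 passed the adjusted p, with a median of 0.721, and 0 were called in hepatocytes, with a median of -0.661. Their summed FPKM was 159, 184 and 184 in WT and 273, 445 and 296 in Cdk1 Liv-/- whole liver, with Cdk1 Liv-/- library 2 the highest, as for S100a9. In hepatocytes it was 108, 63.5 and 190 in WT and 75.9, 57.6 and 64.0 in Cdk1 Liv-/- libraries, with the high value in WT library 3 where the 10 genes were also high. Of 11 Kupffer cell and macrophage genes, 0 were called in whole liver, with a median of 0.208, and 1 was lower in hepatocytes, with a median of -1.070. Their sum was 514, 571 and 571 FPKM in WT and 657, 880 and 689 FPKM in Cdk1 Liv-/- whole liver, with Cd5l the most abundant by the mean of the 12 libraries and Clec4f above it in WT. In hepatocytes it was 357, 193 and 649 in WT and 218, 161 and 140 in Cdk1 Liv-/- libraries. All 8 sinusoidal endothelial genes were called lower in Cdk1 Liv-/- hepatocytes, with a median of -1.610, and 0 in whole liver, with a median of 0.080. Their hepatocyte sums of 140, 95.7 and 257 FPKM in WT and 65.9, 43.5 and 47.9 FPKM in Cdk1 Liv-/- libraries did not overlap, with Fcgr2b the most abundant by the mean of the 12 libraries and Clec4g above it in Cdk1 Liv-/- hepatocytes. The WT and Cdk1 Liv-/- hepatocyte libraries thus differed in RNA of sinusoidal endothelial genes, in the compartment in which the 10 genes had no call. Sums of 4 further lists did not overlap there either, with Cdk1 Liv-/- lower. They were 96.5 to 291 FPKM in WT and 68.4 to 91.0 in Cdk1 Liv-/- hepatocytes for stellate cell genes, and 109 to 583 and 24.9 to 100 for erythroid genes. For B cell genes they were 7.09 to 20.8 and 3.0 to 5.43, and for T and NK cell genes 4.02 to 7.32 and 1.3 to 2.21. The leukocyte and Kupffer cell sums overlapped between the genotypes there.

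Of 9 eosinophil, basophil and mast cell genes tested, out of 14, 1 was called higher in hepatocytes and 1 in whole liver, with medians of -0.472 and 0.749. The call was Siglecf in both compartments, while Prg2, the eosinophil major basic protein gene, was at 1.92, 0.28 and 0.39 FPKM in WT and 0.22, 4.3 and 13.6 FPKM in Cdk1 Liv-/- livers without a call (log2 fold change 1.62, adjusted p = 0.301). Like Ngp and Mpo, Prg2 was low in Cdk1 Liv-/- liver library 1. Ear2 was the most abundant of that list, and Fcer1a, named after its values were seen, was listed at 0 in all 12 libraries. Of 6 haematopoietic progenitor genes tested, out of 7, 1, Cd34, which endothelial cells also carry, was called higher in whole liver, with a median of 0.231, and 0 in hepatocytes, with a median of -0.183. Of 9 erythroid genes, 1 was called lower in whole liver, with a median of 0.205, and 2 in hepatocytes, with a median of -1.351. The erythroid sum was 148, 109 and 583 FPKM in WT and 72.6, 100 and 24.9 FPKM in Cdk1 Liv-/- hepatocytes, with Hbb-bs the most abundant, and 1106, 1231 and 2172 and 1166, 1769 and 1457 FPKM in whole liver. Of 10 B cell genes, 0 were called in whole liver, with a median of -0.474, and 3 were lower in hepatocytes, with a median of -0.694. Of 10 T and NK cell genes, 1, the granzyme gene Gzma, was lower in each compartment, with medians of -0.106 in whole liver and -0.434 in hepatocytes. In Cdk1 Liv-/- whole liver 10 of 16 mature neutrophil and 7 of 13 monocyte genes were thus called higher, but 1 of 5 azurophil granule genes. Of the B cell and the T and NK cell lists 0 genes were called higher. The lists were fitted with all libraries only, and most calls among the 10 genes depended on single libraries. Of 7 stellate cell genes, 1, Col1a1, was called higher in whole liver, with a median of 0.661, and 1 lower in hepatocytes, with a median of -0.893. Of 10 hepatocyte genes, 0 were called in whole liver, though 5 passed the adjusted p as lower, with a median of -0.360. In hepatocytes 1, Apoa1, was called lower, and 2 passed the adjusted p as higher and 2 as lower, with a median of 0.240. Their sum, with Alb the most abundant, was 83837 to 87343 FPKM in WT and 61550 to 66861 FPKM in Cdk1 Liv-/- whole liver. In hepatocytes the sum was 82644 to 91594 FPKM in WT and 56939 to 60807 FPKM in Cdk1 Liv-/- libraries.

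The reads behind the values bear on how far low members can be read. From the steps between low FPKM values, an FPKM of 1 on 1 kb of transcript was estimated to stand for 38.8 to 50 reads in hepatocytes of WT mice and 34.7 to 40.5 in those of Cdk1 Liv-/- mice. In whole liver the numbers were 41.6 to 43.2 for WT and 47.5 to 48.3 for Cdk1 Liv-/- mice. Reads of a gene were estimated with its longest annotated transcript, so they may be too high for genes with several transcripts, such as Mpo with 6. On that length S100a9 rested on 77.7 to 3073 reads in a library and S100a8 on 39.9 to 2066. Mpo rested on 27.9 to 339 reads, Elane on 6.4 to 73.0 and Retnlg on 1.8 to 261. Elane and Retnlg in hepatocytes are therefore the members whose values rest on the fewest reads. The estimate fitted the low values of each library, of which 32.6% to 42.4% lay within 0.05 reads of a whole number against a median of 7.0% to 7.9% over the other steps tried.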

How the data were processed

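PolyA RNA was sequenced from TruSeq Stranded libraries as single reads of 75 bases, per the labels. The submitters' processing notes describe quality checks with FastQC, alignment with STAR to mm10 and quantification with RSEM 1.2.31. The deposited table gives 1 FPKM value per gene and library as made by the authors. The study's methods state that no normalization between libraries was done. A genome annotation, RefSeq promoters and transcript sequences were used as references.

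Values were analysed as log2(FPKM + 0.5). Of 47069 genes, 28019 were above 0 in any library, and the 17386 with a mean FPKM of at least 0.1 were tested with limma 3.58.1 (R 4.3.3), with moderated two-sided tests, a trend and Benjamini-Hochberg adjustment over all genes tested. The thresholds for a call were 0.1 for the adjusted p and 1 for the absolute log2 fold change. Each comparison was fitted on its own 6 libraries and the interaction on all 12. Tables were made with Python 3.11.15, pandas 2.3.3 and numpy 2.4.6. Alternatives were a pseudocount of 0.1, no filter, median-ratio size factors, library number as a replicate block, a two-sample test, adjusted p alone, each library left out, and 2 fits with 2 libraries left out that were added after the data were seen.

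The members and lists were chosen with earlier results of these data known. From each list discussed, genes were named by rule: the 2 largest and 2 smallest log2 fold changes in each genotype comparison and the most abundant gene. The text prints values for only some of the genes so named, picked with their values known. Others are said to be named after their values were seen. The 17 lists cover azurophil granule, specific and gelatinase granule, mature neutrophil, monocyte, production, recruitment, calprotectin receptor, all leukocyte, Kupffer cell, eosinophil with basophil and mast cell, progenitor, erythroid, B cell, T and NK cell, sinusoidal endothelial, stellate cell and hepatocyte genes. Of their 182 genes 180 were found, and Acod1 and Ahsp were not found in the table.

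The study describes a two-sample test with q-values of at most 0.1 and names no fold threshold. Here that test assumed equal variances and took Benjamini-Hochberg adjustment and the fold threshold, so its calls are not those of the study.

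Library depth was estimated as the number of reads per FPKM and kb at which the most genes on transcripts of 300 to 900 bases with at most 0.5 FPKM stood for whole reads, within 0.05 reads. The estimate was tested on simulated data. Library numbers are not described as pairs. Protein, tissue and blood measurements were not used here.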

Additional observations from a re-analysis of the deposited data

Results flagged for a closer look

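For 30 of the 131 tested genes that are members, were named by rule from the 17 lists or by likeness, or served as checks, the genotype effect differed between isolated hepatocytes and whole liver by the interaction test (adjusted p of at most 0.1 from limma). Of all 17386 genes tested, 2.35% passed that limit as higher and 7.49% as lower. Most of the named genes were picked for large or small genotype effects, from which the interaction is made, so their count cannot be compared with these shares. The values are the log2 effect in hepatocytes minus that in whole liver, and only the members were refitted with libraries left out. Among monocyte genes the difference was -1.12 for Ly6c2 (adjusted p = 0.0608, which ran up to 0.148 without WT whole liver library 1), -1.07 for Ccr2 (0.0571), -1.23 for Plac8 (0.0707) and -1.48 for Ifitm6 (0.0948). Among neutrophil genes it was -2.80 for Stfa2 (adjusted p = 0.054), -2.18 for Stfa2l1 (0.0824), -0.95 for Il1r2 (0.0887) and -0.54 for Olfm4 (0.099). It was -1.16 for the integrin gene Itgal (adjusted p = 0.0739) and -0.97 for Tlr4 (0.081).

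Genes of other cells were below 0 as well. Among genes of all leukocytes the difference was -1.95 for Lyz2 (adjusted p = 0.0548), -1.63 for Tyrobp (0.0798), -1.40 for Cd52 (0.0805) and -1.24 for Ptprc (0.0973). It was -2.06 for Marco (adjusted p = 0.07) and -1.57 for Adgre1 (0.087) of Kupffer cells, and -0.63 for Ncr1 (0.0707) of NK cells. Among endothelial genes it was -2.09 for Oit3 (adjusted p = 0.0559), -1.71 for Fcgr2b (0.0559), -1.51 for Clec4g (0.0708) and -1.44 for Stab2 (0.0834). It was -1.67 for Dcn (adjusted p = 0.0841) and -1.49 for Pdgfrb (0.0752) of stellate cells, and -1.17 for Kit (0.0362) and -1.38 for Cd34 (0.099) of the progenitor list. Khdrbs1, close to Ly6c2 by likeness, was at -0.42 (adjusted p = 0.0948). The difference was above 0 for Cebpe at 0.85 (adjusted p = 0.0645), Cebpa at 0.54 (0.0905), and the hepatocyte genes Cps1 at 1.61 (0.01) and Ass1 at 1.30 (0.0307).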

How the results depend on the processing

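No call turned to the opposite direction under any setting. Estimates that were not called changed sign with 1 library left out for S100a8, S100a9, Ltf, Retnlg, Csf3r and Elane in hepatocytes, Mpo in whole liver and Elane in WT hepatocytes against whole liver, and none of these was called on either side. Of the single-gene values of the members, 286 kept their call, 6 were stronger and 18 weaker under the other settings, and 305, 19 and 36 with 1 library left out. Of the members' counts, 57 stayed within 1.5 times and 5 moved, and with 1 library left out 57 stayed and 15 moved. Members called higher in whole liver went from 7 to 2 with no filter, where more genes were tested, and to 2 with the two-sample test, where the cause was not tested. The 1 member called lower in the interaction went to 0 with median-ratio size factors, to 0 with the replicate block and to 0 with hepatocytes WT library 3 and whole liver Cdk1 Liv-/- library 3 both left out, a fit chosen after the data were seen, and the cause was not tested. With the replicate block 5 members were called higher in whole liver, where S100a8 (adjusted p = 0.108) and Camp (0.145) missed the threshold. With 1 library left out, members called ranged from 1 to 9 higher in whole liver, from 0 to 6 lower in the interaction, and from 0 to 6 lower in WT and 8 to 10 lower in Cdk1 Liv-/- hepatocytes against whole liver.

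Over all genes, counts moved by more than 1.5 times as follows, and the cause was not tested. With a pseudocount of 0.1, which compresses low values less, calls went in hepatocytes from 730 to 1114 higher and from 377 to 647 lower, in whole liver from 798 to 1370 higher and from 174 to 280 lower, between compartments in WT from 7 to 12 higher and from 74 to 160 lower, and in Cdk1 Liv-/- from 262 to 520 higher and from 1644 to 2749 lower. With no filter they went to 165 lower in hepatocytes, from 140 to 88 higher and from 548 to 217 lower in the interaction, and to 2 higher and 39 lower between compartments in WT. With size factors they went to 515 higher in whole liver, 271 lower in the interaction, 4 higher and 37 lower between compartments in WT, and 460 higher in Cdk1 Liv-/-. With the two-sample test they went to 133 lower in hepatocytes and to 1 higher and 3 lower between compartments in WT. By adjusted p alone, with no fold threshold, they were 2108 higher and 1149 lower in hepatocytes, 6610 and 1310 in whole liver, 409 and 1303 in the interaction, 18 and 247 between compartments in WT, and 1540 and 6234 in Cdk1 Liv-/-. Without whole liver Cdk1 Liv-/- libraries 1 and 3 they were 1244 higher and 279 lower in whole liver. With both libraries of the interaction fit left out they were 79 higher and 221 lower. With the replicate block they went to 197 lower in hepatocytes, 228 lower in the interaction, and 0 higher and 0 lower between compartments in WT. With 1 library left out, 42 of the counts over all genes stayed within 1.5 times and 30 moved. They ranged from 168 to 592 lower in hepatocytes, from 28 to 196 higher and 36 to 1098 lower in the interaction, and from 1 to 55 higher and 0 to 472 lower between compartments in WT. Residuals of libraries that share a number correlated between groups at -0.317 to 0.239 over genes, so the numbers were not treated as pairs.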
